A study of Mus musculus with 2 samples.

Results

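The collagen genes of the mouse were followed in cultured cells from the base of the neonatal heart. They were all genes whose symbol consists of Col, a type number, the letter a and a chain number, which gave 44 genes of the 28692 in the count matrices. The samples were 1 dorsal and 1 ventral library, each a single pool. Both pools came from the hearts of 15 C57Bl6 pups of both sexes at an age of 3 days, and both were grown for 5 days as adherent cultures and detached with trypsin before droplet capture with 10x Genomics 3' chemistry. No genotype, treatment or later time point separated the pools, so dorsal and ventral origin was the only labelled contrast. With 1 library per domain, origin cannot be told apart from differences between dissections, cultures or libraries. Values therefore describe cells that had been in adherent culture and not freshly isolated tissue.

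Collagens are secreted triple helices built from 3 chains, and the chains that pair with each other are often encoded by different genes. Fibrillar types such as I, III and V form the load-bearing fibres of connective tissue, with type XI as the related fibril former of cartilage, and types II, IX and X are otherwise best known from cartilage. Type IV forms the network of basement membranes, to which types XV and XVIII attach, while type VI forms beaded microfilaments around cells and type VIII forms short-chain networks around vessels and in valves. In the heart most fibrillar collagen is made by fibroblasts, and the base of the heart also holds valves, great arteries, nerves and their glia.

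Cells were barcodes with at least 8000 UMIs, that is counted molecules, and at most 20% mitochondrial UMIs. This left 8926 dorsal and 10649 ventral cells, with 22 barcodes found in both libraries. Barcodes just inside the UMI limit (8000 to 12000) had collagen shares of 1.11% and 1.04% of their UMIs, and those just outside it (4000 to 8000) 0.961% and 0.964%. The median depth was 22774 UMIs in dorsal and 21462 in ventral cells. Levels are UMIs of a gene for every 1000000 UMIs of the summed cells (CPM). The 3' chemistry gives 1 tag per captured molecule and not per length, so CPM of different genes were set side by side without division by length. With 1 library per domain no test between domains was possible. All intervals are 95% intervals that cover counting error only, and no spread between hearts, dissections or cultures was measured.

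Collagen transcripts made up 1.43% of all dorsal and 1.23% of all ventral UMIs. Fibrillar collagens carried most of this, with 88.0% of dorsal and 79.3% of ventral collagen UMIs. Basement membrane collagens followed with 6.34% dorsally and 11.05% ventrally. Type VI took 2.88% against 1.59%, type VIII 0.480% against 3.26%, and the cartilage group 0.953% against 2.97%. The total was thus similar, while its makeup differed. Summed over their genes, type VI collagens stood at a log2 ratio of dorsal over ventral of 1.08, type VIII at -2.55, the cartilage group at -1.43 and the basement membrane group at -0.59. Col11a1 held 23972 of the 31270 dorsal and 89028 of the 92904 ventral UMIs of the cartilage group. Of its other genes only Col9a1, at -0.22, was on the ventral side, while Col2a1 stood at 5.57, Col10a1 at 3.02 and Col9a2 at 2.25. The type VIII sum was mostly Col8a1, and the rare Col8a2 stood at 1.66.

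Of the 44 genes, 17 reached 20 CPM in at least 1 library. Among these 17, Col6a3 and Col18a1 were higher in dorsal cells by 2-fold or more, Col8a1 and Col11a1 were higher by that factor in ventral cells, and 13 differed by less. Over all 5821 genes at that level the share was 4.69% on the dorsal side and 5.12% on the ventral side. The median log2 ratio was 0.05 over the 17 collagens and 0.01 over all genes. A further 9 collagens lay between 5 and 20 CPM, and 18 stayed below 5 CPM in both libraries.

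**Figure D1:**
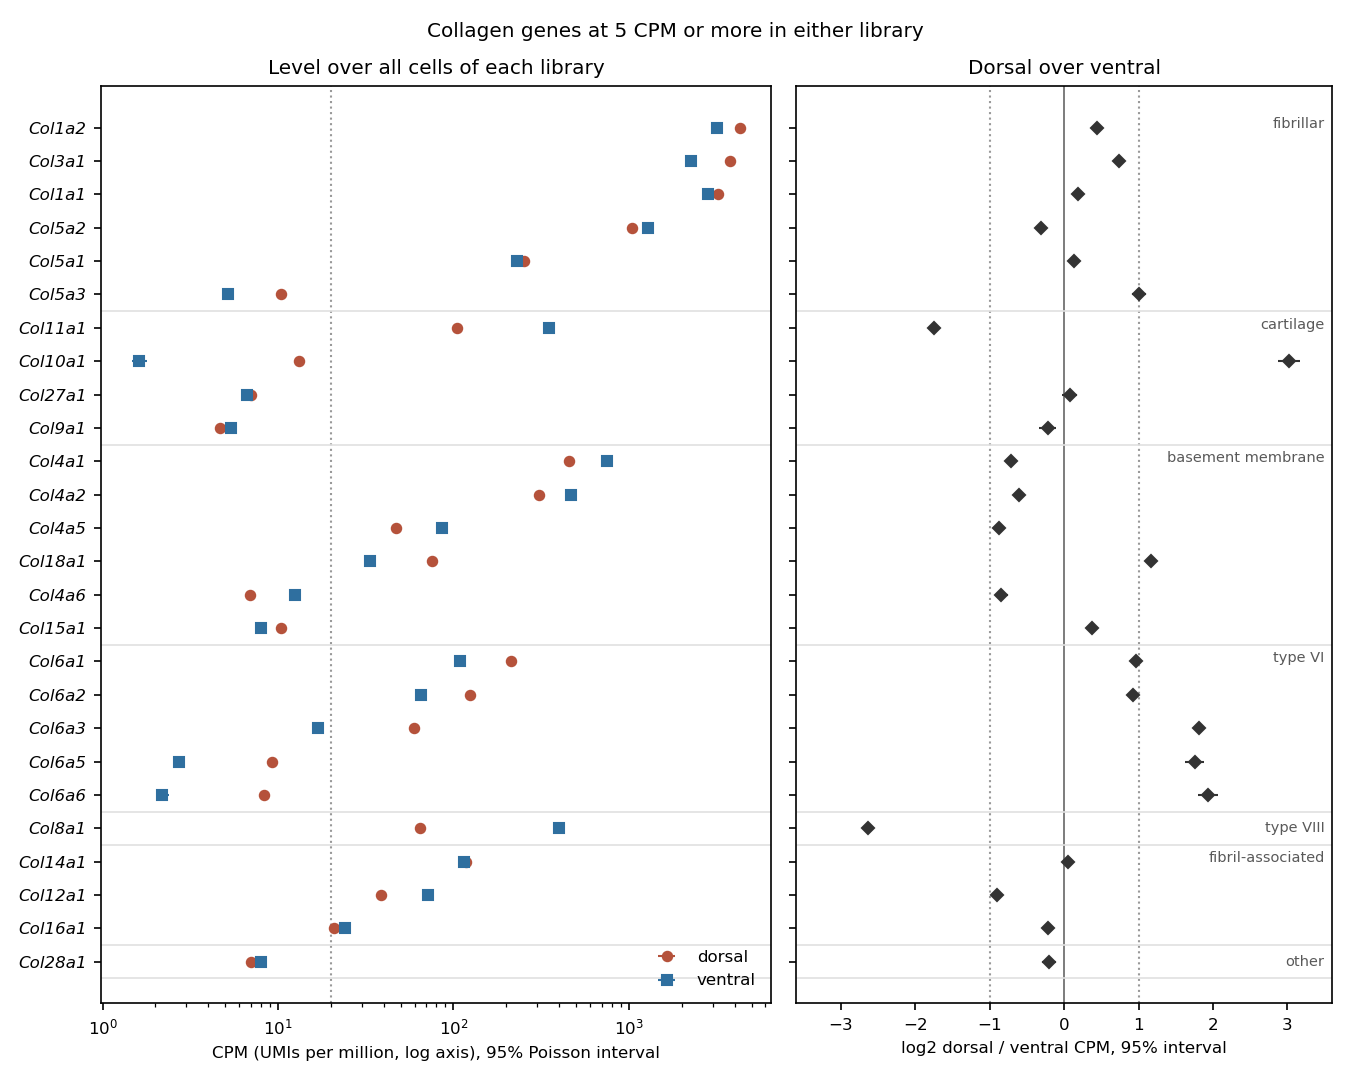
Left, CPM of the 26 collagen genes that reached 5 CPM on a log axis, for dorsal (circles) and ventral (squares) cells with 95% Poisson intervals, most of them narrower than the symbols; the dotted line marks 20 CPM. Right, the log2 ratio of dorsal over ventral with 95% intervals and dotted lines at 2-fold. Col8a1 at -2.64 lies farthest to the ventral side and Col10a1 at 3.02 farthest to the dorsal side.

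The type I chains, which assemble into the main fibre of tendon, bone and scar, were the most abundant collagens along with type III. Col1a2 stood at 4318 CPM dorsally and 3178 CPM ventrally, and Col1a1 at 3231 and 2830 CPM. Col3a1, whose product forms the thinner fibres of distensible tissue, stood at 3748 and 2257 CPM, the widest gap among the 5 fibrillar genes above 20 CPM, with a log2 ratio of 0.73 (0.73 to 0.74). The type V chains, which control fibril diameter, shifted less: Col5a2 was at 1038 and 1292 CPM and Col5a1 at 251 and 230 CPM. The rarer Col5a3 was at 10.4 and 5.16 CPM, a log2 ratio of 1.004. Col24a1, a fibrillar collagen of developing bone, was at 2.11 and 0.273 CPM. All 5 abundant fibrillar genes thus lay within 2-fold between the domains.

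Type VIII and type XI gave the ventral side of the comparison. Col8a1 (chromosome 16, 57624258 to 57754737 on GRCm38), a short-chain collagen of vessel walls and valves, stood at 64.5 CPM dorsally and 401 CPM ventrally. Its log2 ratio was -2.64 (-2.66 to -2.61). With every cell thinned to 8000 UMIs, 24.7% of dorsal and 81.7% of ventral cells held a Col8a1 UMI, against 10.7% and 28.2% of macrophage-like cells, which are given as the background. Its partner gene Col8a2 went the other way, with 4.19 CPM dorsally and 1.33 CPM ventrally, so that the ratio of Col8a1 to Col8a2 UMIs was 15.4 dorsally and 302 ventrally. Col11a1 (chromosome 3, 114030540 to 114220718), the chain that nucleates thin cartilage fibrils, stood at 105 and 352 CPM, a log2 ratio of -1.75 (-1.77 to -1.73). A Col11a1 UMI was found in 36.6% of thinned dorsal and 72.8% of thinned ventral cells, against 15.8% and 27.5% of macrophage-like cells. Both genes were thus present in most ventral cells and not only in a small ventral population.

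Type VI gave the dorsal side. Col6a3 (chromosome 1, 90765923 to 90843971), the longest of the chains of the common type VI microfilament, stood at 59.5 CPM dorsally and 16.9 CPM ventrally, a log2 ratio of 1.81 (1.76 to 1.86). Its UMIs were found in 34.4% of thinned dorsal and 11.3% of thinned ventral cells, with 7.65% and 2.29% in macrophage-like cells. The other chains of that filament moved in the same direction but by less: Col6a1 stood at 212 and 109 CPM with a log2 ratio of 0.96, and Col6a2 at 124 and 65.1 CPM with 0.93. The chains that can replace Col6a3 were low but also higher in the dorsal library, with Col6a5 at 9.22 and 2.73 CPM and Col6a6 at 8.35 and 2.19 CPM. Col6a4 had 44 dorsal and 41 ventral UMIs. The ratio of Col6a3 to Col6a1 UMIs was 0.281 in dorsal and 0.156 in ventral cells, so the chains did not differ by the same factor.

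The promoters of 4 of these genes are shown because the genes were among those with the widest differences between the domains at 20 CPM or more or, for Col10a1, differed widely between cell clusters. They are the 250 bases before the annotated start in the RefSeq table for GRCm38.p6, written 5′ to 3′ on the strand of the gene; 35 of the 44 genes matched that table, with 38 promoters. Capitals mark 3 short motifs, each searched on both strands, with no overlap between matches in these windows; a match on the opposite strand appears as the reverse complement. The motif called the TATA box here was spelled TATAAA. The motif called the CCAAT box was spelled by its name. The motif called the GC box, known as a site of Sp1-type factors, was spelled GGGCGG.
Col8a1, chr16:57754738-57754987, minus strand: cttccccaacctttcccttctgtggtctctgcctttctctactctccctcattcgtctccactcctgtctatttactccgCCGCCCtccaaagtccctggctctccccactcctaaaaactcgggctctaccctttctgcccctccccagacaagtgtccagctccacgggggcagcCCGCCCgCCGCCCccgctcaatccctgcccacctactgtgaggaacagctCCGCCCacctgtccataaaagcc
Col11a1, chr3:114030290-114030539, plus strand: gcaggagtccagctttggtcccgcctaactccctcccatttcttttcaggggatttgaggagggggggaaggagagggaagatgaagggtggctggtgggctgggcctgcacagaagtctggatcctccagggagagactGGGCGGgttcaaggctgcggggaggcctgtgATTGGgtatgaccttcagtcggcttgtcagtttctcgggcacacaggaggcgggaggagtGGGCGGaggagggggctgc
Col6a3, chr1:90843972-90844221, minus strand: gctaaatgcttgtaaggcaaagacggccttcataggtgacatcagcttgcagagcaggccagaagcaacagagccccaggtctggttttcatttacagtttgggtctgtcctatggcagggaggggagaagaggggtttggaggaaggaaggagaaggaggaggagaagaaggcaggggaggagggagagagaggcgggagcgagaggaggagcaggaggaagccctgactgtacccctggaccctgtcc
Col10a1, chr10:34389731-34389980, plus strand: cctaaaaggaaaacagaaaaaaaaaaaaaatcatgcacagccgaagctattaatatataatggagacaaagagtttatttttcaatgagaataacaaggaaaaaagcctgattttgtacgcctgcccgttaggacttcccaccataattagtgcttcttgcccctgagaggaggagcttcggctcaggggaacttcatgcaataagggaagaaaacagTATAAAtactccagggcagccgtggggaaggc
The Col8a1 window held 4 GC boxes, all on the opposite strand. The Col11a1 window held 2 GC boxes and 1 CCAAT box. The Col10a1 window held 1 TATA box, 32 bases before the start, and none of the 3 motifs was found in the Col6a3 window. RefSeq lists 32851 promoters, of which 32.7% held a GC box, 33.8% a CCAAT box and 12.4% a TATA box, and among the 38 collagen promoters the shares were 57.9%, 34.2% and 13.2%. These are letter matches and say nothing of binding.

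Among the basement membrane genes, the network chains were higher in ventral cells by less than 2-fold. Col4a1 stood at 456 CPM dorsally and 748 CPM ventrally, a log2 ratio of -0.72, and Col4a2, its partner in the common network, at 309 and 469 CPM with -0.60. Col4a5 was at 47.0 and 86.3 CPM and Col4a6 at 6.93 and 12.4 CPM. Col4a4 had 241 dorsal and 576 ventral UMIs, and Col4a3 22 and 187. All 6 type IV genes were thus on the ventral side. Col18a1, the heparan sulfate bearing collagen that releases endostatin, lay on the opposite side with 75.4 and 33.6 CPM, a log2 ratio of 1.17 (1.13 to 1.20). Col15a1, its nearest relative, was at 10.4 and 8.02 CPM, and Col7a1, which anchors epithelia, at 2.93 and 3.26 CPM.

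The type IV genes lie in head-to-head pairs, and the members of a pair were read in different proportions. Col4a1 and Col4a2 start 21 bases apart on chromosome 8 on opposite strands. Their UMI ratio was 1.47 in dorsal and 1.60 in ventral cells, and over the clusters of at least 50 cells it ran from 1.15 to 1.64 in the dorsal and from 1.44 to 1.74 in the ventral library. Col4a5 and Col4a6 start 1309 bases apart on the X chromosome. Their ratio was 6.79 and 6.93 over all cells, but from 3.63 to 24.1 over dorsal clusters and from 3.17 to 29.2 over ventral ones. The Col4a1 to Col4a2 ratio therefore moved little between clusters, and the Col4a5 to Col4a6 ratio by several fold. On other chromosomes, Col1a1 to Col1a2, partners in type I, was 0.748 in dorsal and 0.891 in ventral cells, with a cluster range of 0.571 to 0.842 and of 0.656 to 0.9998. Col3a1 to Col1a1 was 1.16 in dorsal and 0.797 in ventral cells.

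**Figure D2:**
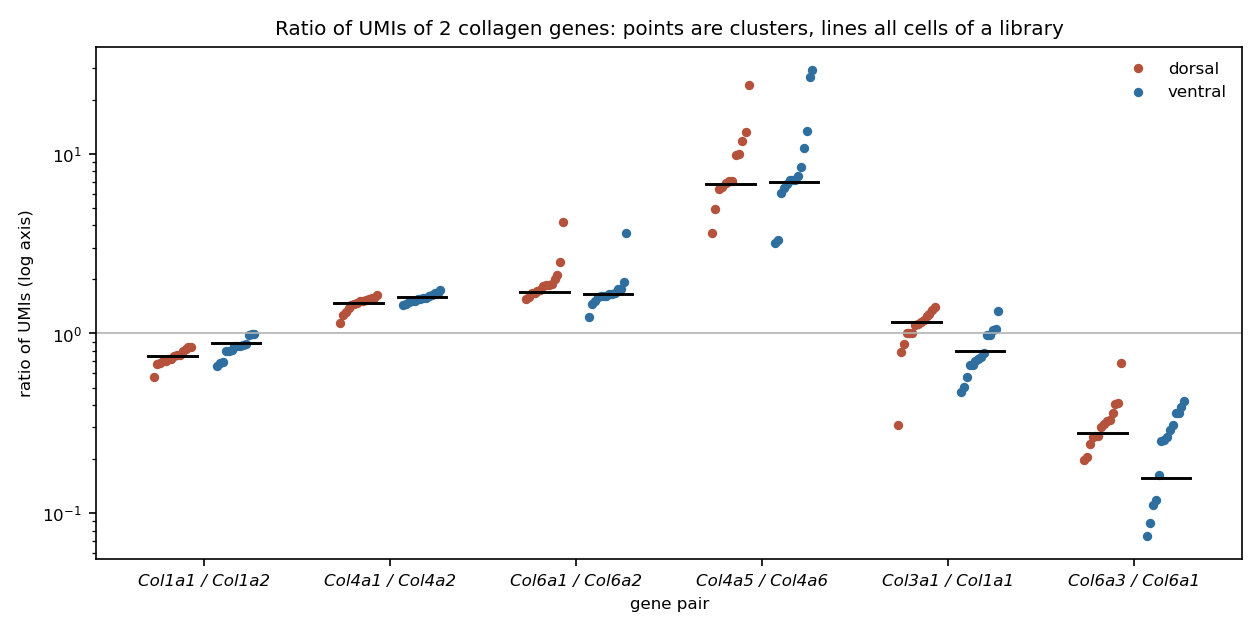
Ratio of the UMIs of 2 collagen genes on a log axis, with a point for each cluster of at least 50 cells of a library and at least 50 UMIs of the pair, sorted by value, and a black line for all cells of the library. The Col4a1 to Col4a2 points stay between 1.15 and 1.74, while the Col4a5 to Col4a6 points run from 3.17 to 29.2.

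The fibril-associated genes showed smaller differences. Col12a1, which bridges fibres in tendon and periosteum, stood at 38.4 CPM dorsally and 71.4 CPM ventrally. Col14a1, its relative in skin and tendon, was at 118 and 114 CPM, and Col16a1 at 20.9 and 24.2 CPM. Col28a1, a collagen of peripheral nerve, was at 6.97 and 8.02 CPM. The cartilage genes other than Col11a1 were rare over all cells: Col10a1 was at 13.1 and 1.62 CPM, Col27a1 at 7.01 and 6.67 CPM and Col9a1 at 4.64 and 5.41 CPM. Col2a1, the main fibrillar chain of cartilage, had 431 dorsal and 10 ventral UMIs, and Col9a2 stood at 4.07 and 0.857 CPM. Except for Col11a1, these genes were found in few cells, at most 6.43% of thinned cells for Col27a1 in the dorsal library.

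Of the 18 genes below 5 CPM in both libraries, the transmembrane collagen Col23a1 had the most dorsal UMIs, 978, with 95 in the ventral library. Col26a1 had 818 and 284, Col13a1 549 and 309, Col25a1 220 and 21, Col9a3 134 and 111, Col11a2 131 and 72, Col20a1 84 and 33, Col17a1 79 and 27, Col19a1 64 and 138, and Col22a1 28 and 22. Most cells held none of these UMIs. For Col23a1 the share of thinned dorsal cells with a UMI, 3.25%, was below that of macrophage-like cells at 3.57%, so no difference is read from that share. Fibroblast-like cells held 51.7% of the dorsal Col23a1 UMIs, and the Gdf10-led cluster had 11.7 CPM, against 2.74 CPM in macrophage-like cells.

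Cell classes were rebuilt from marker genes after clustering with all collagen genes left out, so that no class rested on the genes described. Fibroblast-like cells numbered 5173 dorsal and 5811 ventral, mural-like cells (smooth muscle and pericyte markers) 640 and 864, Schwann and glial-like cells 469 and 194, macrophage-like cells 196 and 131 and endothelial-like cells 105 and 146. Mesothelial-like cells numbered 1076 in the ventral and 19 in the dorsal library and were described in the ventral library alone. With finer clustering (Leiden resolution 2.0) they numbered 1083 ventral and 142 dorsal, and fibroblast-like cells 4093 ventral and 5016 dorsal. Cardiomyocyte-like cells, with the heart muscle genes Nppa, Myl7 and Myh6 in front, numbered 46 and 32, under the 50 needed for a class value. Clusters that met no naming rule held 2214 dorsal and 2387 ventral cells. Most fibroblast-like and mural-like clusters came almost wholly from 1 library, and with 1 library per domain a cluster of that kind may be the library and not a cell type. Dorsal fibroblast-like cells were mostly those of the clusters led by Sele, Chchd10, Gdf10 and Mmp3, ventral ones those led by Gpx3, Cd200 and Igfbp3. Dorsal mural-like cells were mostly those led by Cxcl15 and Des, ventral ones those led by Sost and Higd1b. Among Schwann and glial-like cells the Gap43-led cluster held 315 dorsal and 29 ventral cells, so the class was made up differently in each library, which touches each glial ratio.

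The collagen share of a cell's UMIs fell into an order that was the same in both libraries. Its median was 1.503% in dorsal and 1.34% in ventral fibroblast-like cells, 0.912% and 0.833% in mural-like cells, 0.569% and 0.708% in Schwann and glial-like cells, 0.192% and 0.228% in endothelial-like cells and 0.0604% and 0.0579% in macrophage-like cells. Ventral mesothelial-like cells had a median of 0.879%, next to the mural-like cells. Macrophages make little collagen, and the upper quartile of macrophage-like cells, 0.701% and 0.494%, came with doublet scores: the 20.4% and 21.4% of these cells with the highest Scrublet scores had medians of 0.915% and 0.841%, the others 0.0506% and 0.0512%. Collagen levels of the summed macrophage-like cells include these cells of high score. Whether they are droplets with another cell was not tested. The cells were not filtered for doublets in the values given here.

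**Figure D3:**
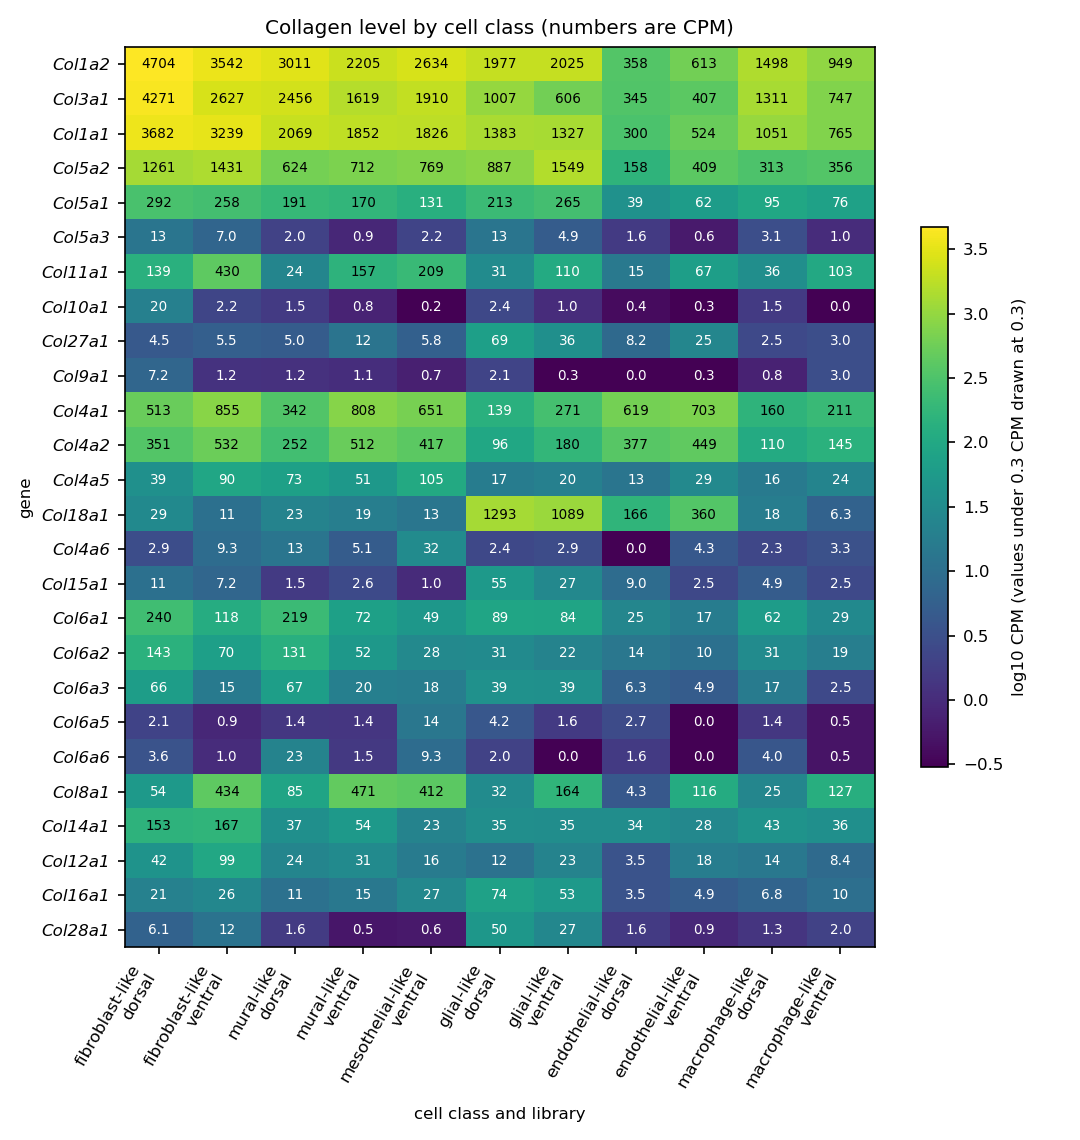
CPM of the 26 collagen genes at 5 CPM or more (rows) in each cell class with at least 50 cells in a library (columns); colour is log10 CPM and the printed numbers are CPM. Col18a1 stands at 1293 and 1089 CPM in Schwann and glial-like cells and at 28.9 and 10.6 CPM in fibroblast-like cells, while Col1a2 is highest in fibroblast-like cells at 4704 and 3542 CPM.

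Schwann and glial-like cells had a collagen makeup of their own. Col18a1 stood there at 1293 CPM in the dorsal and 1089 CPM in the ventral library, close to Col1a1 in the same cells at 1383 and 1327 CPM. The next class was endothelial-like cells with 167 and 360 CPM of Col18a1. These glia were 5.25% of dorsal and 1.82% of ventral cells but held 59.5% and 49.3% of all Col18a1 UMIs. In the dorsal Gap43-led glial cluster Col18a1 reached 1658 CPM while Col3a1 stood at 294 CPM, a ratio of Col3a1 to Col1a1 of 0.309, the lowest of the 14 dorsal clusters of at least 50 cells. Col28a1, which lies in the basal lamina of Schwann cells, stood at 50.4 and 26.5 CPM in the class and Col15a1 at 54.6 and 27.3 CPM, both at least 2-fold above every other class of their library. Col27a1 at 68.7 and 36.4 CPM and Col16a1 at 74.3 and 52.8 CPM were also highest there. The 11.5% and 17.5% of these cells with the highest doublet scores had median collagen shares of 1.23% and 0.976%, the others 0.548% and 0.677%.

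Of the 30 collagens that reached 5 CPM in a dorsal class, 14 were highest in fibroblast-like cells, 7 in Schwann and glial-like, 5 in mural-like and 4 in endothelial-like cells. Of 27 in the ventral library, 11 were highest in fibroblast-like, 10 in Schwann and glial-like, 4 in mesothelial-like and 1 each in mural-like and endothelial-like cells. The lead was at least 2-fold over every other class for 6 of the 7 genes in dorsal glia and for 4 of the 10 in ventral glia. Among the others, Col5a1 at 265 CPM in ventral glia and 258 CPM in ventral fibroblast-like cells had a ratio of 1.03 with an interval from 0.965 to 1.09.

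Endothelial-like cells had little fibrillar collagen and much type IV. Their Col4a1 stood at 619 CPM in the dorsal and 703 CPM in the ventral library, above their Col1a1 at 300 and 524 CPM. In no other class did Col4a1 exceed Col1a1. Without the droplets of highest doublet score their Col1a1 was 126 and 204 CPM. Col23a1 stood at 117 and 17.5 CPM in endothelial-like cells. Among 27 dorsal cells led by the lymphatic endothelial genes Ccl21a and Lyve1 and with Prox1 among the leading genes, Col23a1 reached 313 CPM (272 to 357), with a UMI in all 27 and 22.1% of the dorsal Col23a1 UMIs. The other dorsal endothelial cluster, led by Emcn, was at 44.6 CPM and the ventral one at 10.6 CPM. The dorsal lymphatic-marked cluster had 4 ventral cells, so the gap between the libraries in this class moves in part with how many of these cells each holds. A dorsal excess stayed in the Emcn-led cluster alone.

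Col10a1 and Col9a1 had different main sites in each domain. In the dorsal Mmp3-led cluster of 621 cells, Col10a1, the marker of hypertrophic cartilage, stood at 228 CPM and held 73.3% of the dorsal Col10a1 UMIs. Col9a1 there was at 89.7 CPM, Col9a2 at 49.2 CPM, Col2a1 at 37.5 CPM and Col11a1 at 466 CPM. Outside it, no dorsal cluster of at least 50 cells exceeded 17.1 CPM of Col10a1 or 4.45 CPM of Col9a1. In the ventral library an unnamed cluster led by Fmod and Scx carried 2 of 7 tendon and valve markers and 2 of 10 fibroblast markers. This cluster had Col9a1 at 28.6 CPM, 72.5% of the ventral Col9a1 UMIs, with Col9a2 at 0.865 CPM and Col2a1 at 0.173 CPM. Its ratio of Col9a1 to Col9a2 was 33.1, against 1.82 in the dorsal Mmp3-led cluster. The near-equal Col9a1 of the libraries, 4.64 and 5.41 CPM, was thus the sum of different populations: without the Mmp3-led cluster the log2 ratio of Col9a1 was -2.59 and that of Col10a1 1.17, while Col11a1 stood at -1.99.

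**Figure D4:**
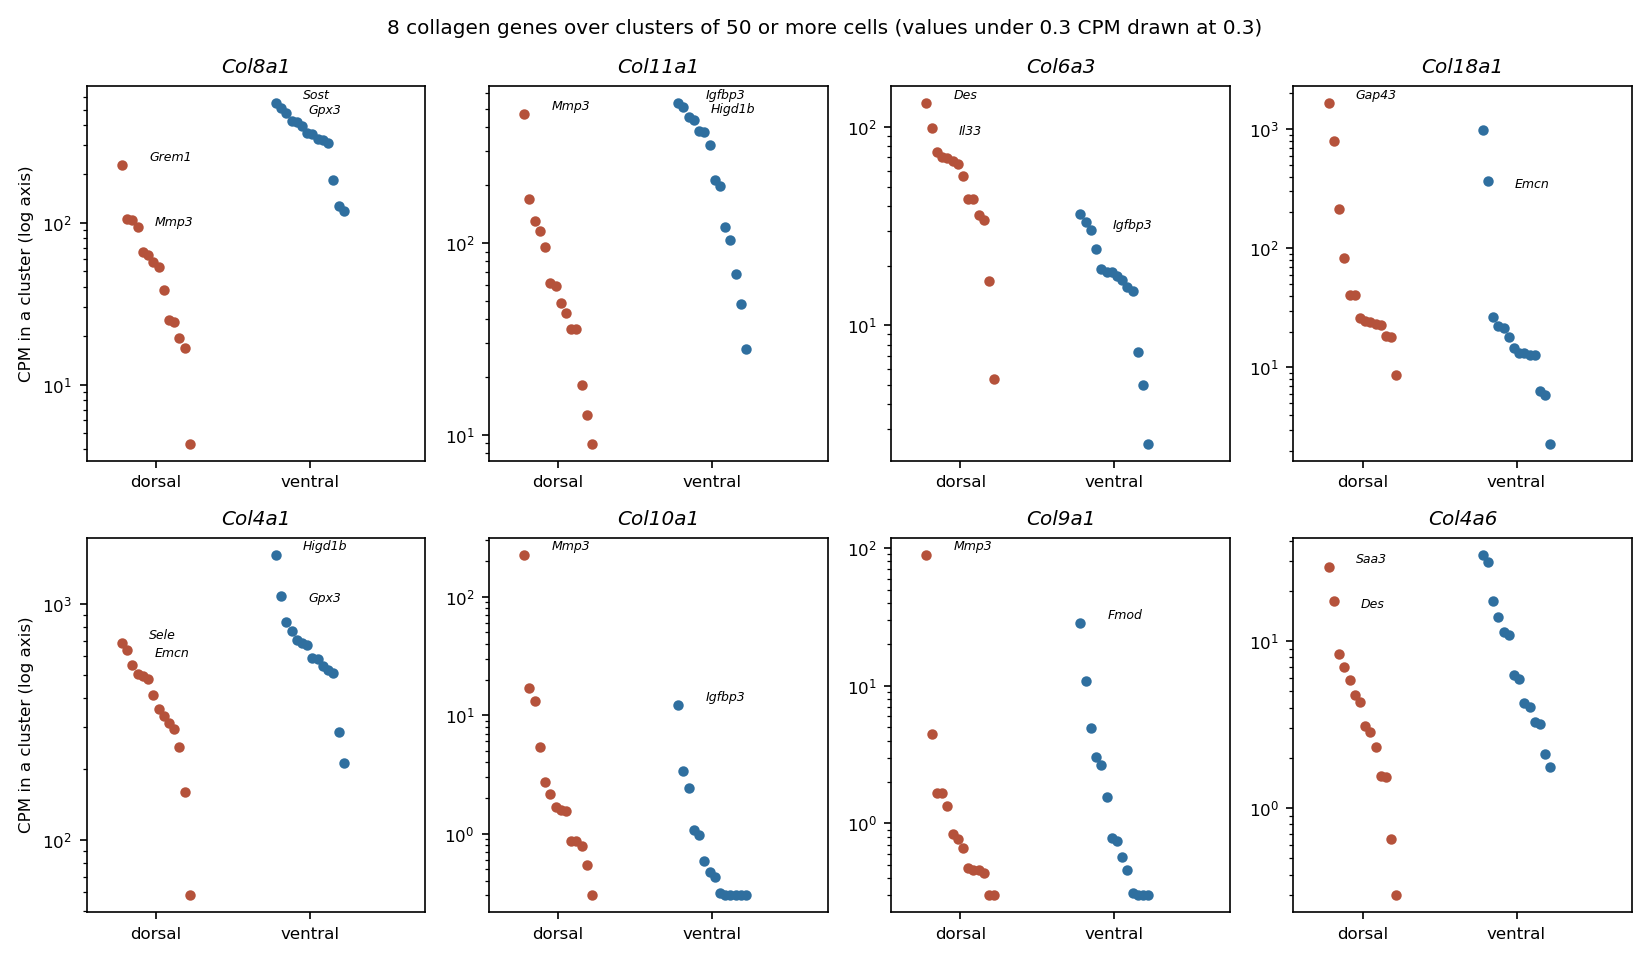
CPM of 8 collagen genes on log axes in every cluster of at least 50 cells of a library, sorted by value, with the leading gene printed beside the points of the top 2 clusters where the text names that cluster; values under 0.3 CPM are drawn at 0.3. Col10a1 and Col9a1 are set apart in the dorsal Mmp3-led cluster at 228 and 89.7 CPM, whereas the ventral clusters of Col8a1 all lie at 119 CPM or above.

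The ventral Igfbp3-led fibroblast-like cluster, which also carried Epha3, had its own set. Col12a1 reached 318 CPM there and 90.7 CPM in the next ventral cluster, and the cluster held 35.8% of the ventral Col12a1 UMIs. Col10a1 stood at 12.1 CPM, 60.1% of the ventral total. Col15a1 at 27.7 CPM and Col28a1 at 26.5 CPM were at the level of the glia of that library, and Col11a1 at 534 CPM was the highest of the clusters of at least 50 cells. Among dorsal clusters of at least 50 cells the highest Col12a1, 96.8 CPM, was in the Il33-led cluster, which also had the highest Col1a1 at 4684 CPM and Col6a1 at 368 CPM. The Grem1-led dorsal cluster had the highest dorsal Col8a1 at 228 CPM, below 11 of the 14 ventral clusters.

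Mesothelial-like cells and a dorsal cluster led by Saa3 that expresses Calca both had Col4a6, Col6a5 and Col6a6. Col4a6 stood at 27.9 CPM in the dorsal cluster and at 32.2 CPM in ventral mesothelial-like cells. Col6a5 was at 52.3 and 13.9 CPM and Col6a6 at 27.9 and 9.27 CPM. Col4a5, an abundant chain, was at 101 and 105 CPM there, but its highest ventral cluster was the Cd200-led fibroblast-like one at 112.5 CPM. In 41 dorsal Grem1-led mural-like cells Col4a5 reached 251.5 CPM and Col4a6 66.9 CPM. The dorsal cluster of 1015 cells held 71.1% of the dorsal Col6a5 UMIs and 50.4% of those of Col4a6, and its Col4a5 to Col4a6 ratio of 3.63 was the lowest of the dorsal clusters of at least 50 cells. It carried 4 of 10 mesothelial markers beside fibroblast markers and was left unnamed. That depended on the resolution: at 2.0 a cluster of 129 dorsal and 4 ventral cells, with Saa3 and Calca among its leading genes, carried 8 of 10. Col6a6 had a second site in the dorsal mural-like cluster led by Cxcl15 and Rgs5, at 31.3 CPM, and Col12a1 was at 4.53 CPM in the Saa3-led cluster, the second lowest value of the dorsal clusters of that size.

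The larger ventral mural-like clusters differed from each other in several collagens. The cluster led by Higd1b carried 7 of 9 smooth muscle and 4 of 8 pericyte markers. The cluster led by Sost and Igfbp2 carried 8 of 9 and 2 of 8. The former had Col4a1 at 1619 CPM, the highest of the clusters of at least 50 cells, Col11a1 at 510 CPM and Col14a1 at 148 CPM. The latter had 525, 27.9 and 19.6 CPM of these. Col8a1 stood at 309 CPM in the former and 549 CPM in the latter. In the dorsal library the Des-led smooth muscle cluster had the highest Col6a3 of that size, at 132 CPM, with Col6a1 at 324 CPM, and the Cxcl15-led cluster had 43.4 and 162 CPM.

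Small clusters of 20 to 49 cells held a large part of the dorsal UMIs of Col19a1 and Col25a1. The 38 dorsal skeletal muscle-like cells held 65.6% of the dorsal Col19a1 UMIs (42 UMIs, 29.5 CPM) and 45.9% of those of Col25a1 (101 UMIs, 70.9 CPM, in 30 of 38 cells). Col25a1, a transmembrane collagen that muscle needs to receive motor axons, stood at 60.9 CPM in 41 dorsal Grem1-led mural-like cells and at 6.77 CPM in the Gap43-led glia. No ventral skeletal muscle-like cell was found, and Col25a1 had 21 UMIs in that library. Col19a1 had 138 UMIs there, more than the 64 of the dorsal library, and 90 of the 138 were in fibroblast-like cells.

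Within classes the differences between domains did not all follow the pooled ones. In fibroblast-like cells 18 collagens reached 20 CPM, of which 5 were higher dorsally by 2-fold or more (4.70% of all genes) and 4 in ventral cells (5.22%). In mural-like cells these were 4 of 17 (6.07%) and 4 of 17 (4.24%), in Schwann and glial-like cells 1 of 20 (3.57%) and 2 of 20 (2.72%), in endothelial-like cells 1 of 15 (6.26%) and 6 of 15 (4.26%), and in macrophage-like cells 1 of 13 (3.49%) and 2 of 13 (2.92%). The highest doublet scores were unequal in endothelial-like cells, at 6.67% of dorsal and 19.2% of ventral ones. Those cells had median collagen shares of 0.825% and 0.696%, the others 0.189% and 0.207%, and the endothelial-like counts include them. Macrophage-like cells are given beside the other classes as a reference, and how much free RNA and mixed droplets add to each class was not measured directly.

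Before any subtraction of free RNA, Col8a1 counts were higher in ventral cells in all 5 classes. Col8a1 stood at 53.5 CPM dorsally and 434 CPM ventrally among fibroblast-like cells, a log2 ratio of -3.02, and at 84.9 and 471 CPM in mural-like cells, with -2.47. In Schwann and glial-like cells it was at 32.1 and 164 CPM, in endothelial-like cells at 4.31 and 117 CPM, and in macrophage-like cells at 25.03 and 127 CPM with a log2 ratio of -2.34. Col11a1 had log2 ratios of -1.63 in fibroblast-like, -2.69 in mural-like, -1.82 in glial, -2.18 in endothelial-like and -1.53 in macrophage-like cells. In the ventral library the glial and endothelial-like Col8a1 levels lay near that of macrophage-like cells, and the fibroblast-like and mural-like levels more than 3-fold above it. With the largest share of free RNA that Col1a1 allows subtracted, Col8a1 in glia stood at 4.89 CPM dorsally and 2.86 CPM ventrally. The same share took glial Col3a1 to -1240 and -711 CPM, below 0, so it was too large for these cells. How much glial Col8a1 lies above free RNA was therefore not measured. In endothelial-like cells that subtraction left Col8a1 at 0 and 52.7 CPM. In mural-like cells, with Col1a1 at 2069 and 1852 CPM, it left Col8a1 at 44.2 and 245 CPM but took Col3a1 to -904 and -218 CPM. Col11a1 was not above that limit in either library in glia or mural-like cells, where the limit takes out too much to tell. It was 3.11 CPM above the limit in dorsal endothelial-like cells but not above it in ventral ones. For Col11a1 the fibroblast-like levels of 139 and 430 CPM stood above macrophage-like cells at 35.6 and 103 CPM, while dorsal mural-like cells at 24.3 CPM did not.

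The common type VI chains were higher dorsally in fibroblast-like and mural-like cells, and nearer to equal in glia. Col6a3 stood at 65.7 CPM dorsally and 15.2 CPM ventrally among fibroblast-like cells, a log2 ratio of 2.11, and at 66.8 and 19.6 CPM in mural-like cells, with 1.77. In Schwann and glial-like cells it was at 39.1 and 38.7 CPM, a ratio of 0.02 with an interval from -0.27 to 0.31. Col6a1 followed the same order, with 1.03 in fibroblast-like, 1.60 in mural-like and 0.08 (-0.11 to 0.27) in glial cells. Col6a2 had 1.02, 1.32 and 0.46 (0.10 to 0.84), and the rare Col6a5 and Col6a6 had 33 against 6 and 16 against 0 UMIs in dorsal and ventral glia. The difference between classes was not tested. Macrophage-like cells had Col6a3 at 16.7 CPM dorsally and 2.53 CPM ventrally. With all Col1a1 read as free RNA, glial Col6a3 was 0.07 CPM above the limit dorsally and 28.1 CPM above it ventrally. Glial Col6a1 was above it only in the ventral library and Col6a2 in neither. That limit takes out too much in glia, so how much glial type VI lies above free RNA was not measured.

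Type IV and type XVIII genes depended on the class. Col4a5 stood at 38.7 CPM dorsally and 89.5 CPM ventrally among fibroblast-like cells, a log2 ratio of -1.21, but at 72.5 and 51.1 CPM in mural-like cells, with 0.51. Col4a1 had log2 ratios of -0.74 in fibroblast-like, -1.24 in mural-like and -0.18 in endothelial-like cells. Col18a1 was at 28.9 and 10.6 CPM in fibroblast-like cells, a log2 ratio of 1.45, at 167 and 360 CPM in endothelial-like cells, with -1.11, and at a ratio of 0.25 in glia. Within each glial cluster Col18a1 was higher ventrally, against the direction of the class. It stood at 1658 and 1946 CPM in the Gap43-led cluster, the latter from 29 cells, and at 796 and 984 CPM in the other. The pooled Col18a1 ratio of 1.17 was 0.87 without the Schwann and glial-like cells, which were more frequent in the dorsal library. It was 0.39 with the classes named on both sides set to their mean shares. Other differences of at least 2-fold were Col12a1 at -1.23 and Col10a1 at 3.18 in fibroblast-like cells, Col6a6 at 3.96 and Col4a2 at -1.02 in mural-like cells, Col15a1 at 1.001 in glia, Col23a1 at 2.75, Col27a1 at -1.63, Col5a2 at -1.37 and Col4a5 at -1.16 in endothelial-like cells, and Col6a1 at 1.11 in macrophage-like cells.

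**Figure D5:**
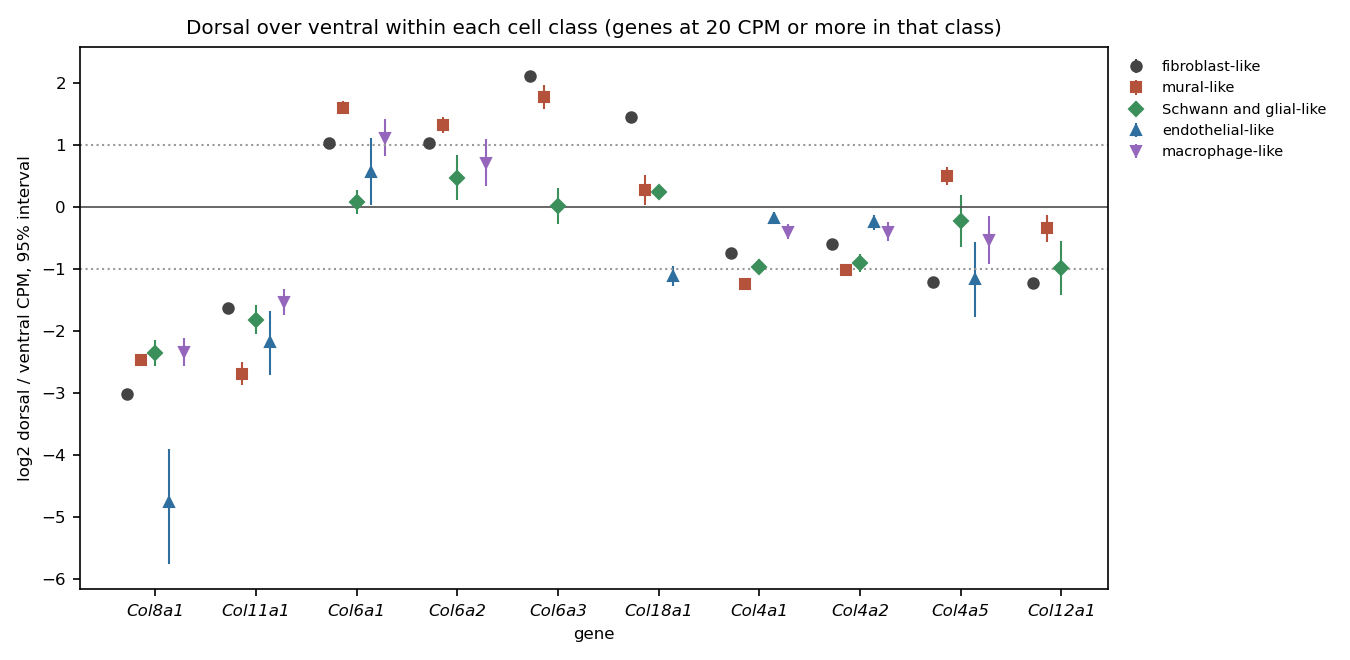
Log2 ratio of dorsal over ventral CPM of 10 collagen genes within each cell class, drawn where the gene reached 20 CPM in that class in either library, with 95% intervals for counting error and dotted lines at 2-fold. Counts are shown without subtraction of free RNA. With all Col1a1 read as free RNA, glial Col8a1 was at 4.89 and 2.86 CPM and glial Col11a1 was not above the limit. That subtraction took out too much in glia, where it left Col3a1 at -1240 and -711 CPM. Col8a1 and Col11a1 lie below zero in all 5 classes, Col6a3 lies at 2.11 in fibroblast-like and 0.02 in Schwann and glial-like cells, and Col18a1 lies on both sides.

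The genes that modify, export, process, cross-link and bind collagen are given for comparison. Of 43 listed genes 31 reached 20 CPM, and 0 of the 31 differed 2-fold in either direction, against 4.69% and 5.12% of all genes, with a median log2 ratio of -0.08. With edgeR's TMM scaling, which lowers all log2 ratios, Loxl2 and Ddr1 passed 2-fold on the ventral side. They ran from Loxl2, a lysyl oxidase that cross-links fibres, at 91.3 CPM dorsally and 174 CPM ventrally (-0.93), to Plod1, a lysyl hydroxylase, at 59.4 and 29.9 CPM (0.99). The 3 lysyl oxidases at that level, Lox, Loxl1 and Loxl2, had a median of -0.81 and all stood on the ventral side. Serpinh1, the collagen chaperone, was at 1406 and 1812 CPM. Among the receptors, Ddr1 was at 23.8 and 45.2 CPM and Ddr2 at 81.8 and 53.9 CPM, the former on the ventral and the latter on the dorsal side.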

How the data were processed

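The data are single-cell 3' RNA libraries, a dorsal and a ventral one. The authors' deposited matrices contain raw UMI counts for every barcode, made with Cell Ranger 3.0.2 on mm10 per the submitters' processing notes. The gene annotation they used is not given in the sources used here. Positions come from GENCODE M21 (GRCm38) and promoters from RefSeq (GRCm38.p6).

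Barcodes with at least 8000 UMIs and at most 20% mitochondrial UMIs were kept (9 dorsal and 15 ventral barcodes failed the latter), with no doublet filter. Their UMIs were 92.8% of the dorsal and 95.6% of the ventral matrix. UMIs were summed and scaled to CPM. Intervals are exact Poisson (levels), exact conditional binomial (ratios) and Clopper-Pearson (shares), at 95%. A gene at 20 CPM or more in either sum counted as different at 2-fold, which states a size and is no test. On simulated counts with the same totals, this rule marked 0 of 71 genes set to 1.5-fold and 66 of 66 set to 3-fold. The simulation held counting error only, which is small at these totals, and says nothing of the spread between pools.

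Cells were clustered together in scanpy 1.11.5 without integration and without collagen genes (2000 variable genes, 30 components, 15 neighbours, Leiden resolution 1.0). A cluster took the class whose markers were most often at least 2-fold higher and found in at least 25% of its cells, with at least 3 markers needed. A cluster with no such class became fibroblast-like if 5 or more fibroblast markers occurred in 50% of its cells and it was not led by cell cycle genes. Clusters with strong markers of another class beside fibroblast markers stayed unnamed, a condition set after the clusters had been seen. Classes and clusters needed 50 cells in a library, and clusters of 20 to 49 cells are given as small clusters. For shares of cells with a UMI, each cell was thinned to 8000 UMIs. Scrublet's automatic threshold marked 0 dorsal and 544 ventral barcodes, so the alternative removes the 637 dorsal and 907 ventral barcodes of highest score.

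Collagens at 5 CPM or more in either library are named with both values, and the others with counts. The collagen genes, marker lists and processing gene list were chosen with earlier results of these data known. Alternatives concerned the UMI and mitochondrial limits, doublets, cell weighting, class shares, the CPM minimum, edgeR 4.0.16 TMM scaling, resolution and free RNA.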

Additional observations from a re-analysis of the deposited data

Results flagged for a closer look

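Col18a1 met a rule for results that turn direction between groups. Its log2 ratio of dorsal over ventral was 1.45 (1.36 to 1.54) in fibroblast-like cells, at 28.9 CPM dorsally and 10.6 CPM ventrally, and -1.11 (-1.28 to -0.95) in endothelial-like cells, at 167 and 360 CPM. Each value comes from 1 library per domain, so the difference between the classes was not tested. The endothelial-like class held 27 dorsal and 4 ventral cells of the lymphatic-marked cluster, where dorsal Col18a1 stood at 34.7 CPM. In the Emcn-led endothelial cluster alone it stood at 215 CPM dorsally and 364 CPM ventrally. No group had the number of samples that a check for single outlying samples needs.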

How the results depend on the processing

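No paired analysis was possible because each domain has a single library. The collagen share of dorsal UMIs, 1.43% as reported, was 1.43% from a minimum of 4000 UMIs, 1.45% from 12000 UMIs, 1.44% with at most 10% mitochondrial UMIs, 1.42% without the highest doublet scores, 1.41% with cells weighted equally and 1.45% with each class named in both libraries at its mean share. The ventral share, 1.23%, was 1.23%, 1.24%, 1.22%, 1.21% and 1.27% in the same order without the mitochondrial limit, which left it the same. The log2 ratio of these shares, 0.21, was 0.10 with TMM scaling, 0.21 from 4000 UMIs, 0.22 from 12000 UMIs and 0.19 at mean class shares. TMM scaling moved the median of all genes from 0.01 to -0.11. The count of genes at least 2-fold higher in dorsal cells was 2 of 17 as reported (4.69% of all genes). With cells weighted equally Col6a1 and Col6a2, at log2 ratios of 0.96 and 0.93 as reported, also passed 2-fold. The dorsal count became 6 of 26 from 5 CPM (6.03% of all genes) and 16 of 44 with no minimum (16.8%). The ventral count became 4 of 44 with no minimum (7.46%).

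Of the 26 genes at 5 CPM, 26 kept their side of 2-fold from 4000 UMIs, under the mitochondrial limit and without the highest doublet scores, 25 from 12000 UMIs and 24 with TMM scaling or equal weights. At mean class shares, which leave out unnamed and mesothelial-like cells, 19 did: Col6a1 (1.05), Col6a2 (1.04) and Col12a1 (-1.17) passed 2-fold, Col18a1 (0.39) lost it, and Col9a1 went from -0.22 to 2.33. The sign changed for Col14a1 and Col27a1 with TMM scaling, for Col27a1 from 12000 UMIs, for Col14a1, Col16a1, Col28a1 and Col9a1 with equal weights, and for Col14a1, Col27a1 and Col9a1 at mean class shares. Leaving out the 22 shared barcodes changed no count.

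The subtraction of free RNA reads all Col1a1 of a class as free RNA, which takes out too much where the cells make Col1a1. It took Col3a1 below 0 in glial, mural-like, endothelial-like and macrophage-like cells of both libraries, which is more than these cells can hold. It was not used for fibroblast-like cells. The barcodes of 10 to 100 UMIs planned for it were 44.0% other-library cell barcodes in the dorsal library, so barcodes of 50 to 300 UMIs without these were added after seeing the data. With them Col18a1 in Schwann and glial-like cells stood at 1260 CPM dorsally and 1073 CPM ventrally, Col23a1 in endothelial-like cells at 117 and 17.3 CPM, and Col8a1 there at 0 and 52.7 CPM. Values without the glia or the Mmp3-led cluster were also chosen after seeing the data. Depth limits the genes below 5 CPM, which most cells held at 0 UMIs.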
